A study of Mus musculus with 4 samples.

Results

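The transcripts described here are the 57 nuclear-encoded subunits of respiratory complexes I to IV that were listed by gene symbol, out of 53715 genes counted in mouse embryonic cells. Complex I (symbols beginning Nduf) gave 35 members, complex II (Sdh) 4, complex III (Uqcr) 8 and complex IV (Cox) 10, and each symbol matched 1 row of the counts table through its Ensembl identifier. The cells came from C57BL/6 embryos at E12.5 and are labelled as primordial germ cells, from which oocytes and spermatozoa later arise. They were collected by magnetic cell separation, and 1000 cells went into each RNA-seq library, made with a modified Smart-seq2 method and Tn5 transposase. The comparison was of 2 libraries labelled Rif1_KO, for a knockout of the chromatin and replication timing factor Rif1, with 2 libraries labelled WT, for wild type. The allele, the marker used for the separation and the number of embryos are not given in the sources used here. Since nothing says that the libraries of a label came from separate embryos, the spread behind each p-value is that between these libraries and may be technical only.

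The respiratory chain sits in the inner mitochondrial membrane and passes electrons from nutrients to oxygen while it pumps protons that drive ATP synthase. Complex I takes electrons from NADH and complex II from succinate, complex III moves them from ubiquinol to cytochrome c, and complex IV hands them to oxygen. Complexes I, III and IV are built from nuclear subunits, imported as proteins, together with a few subunits encoded by mitochondrial DNA, whereas complex II is wholly nuclear. Primordial germ cells are known for relying on oxidative phosphorylation more than pluripotent stem cells do.

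Library totals ran from 11724630 to 14421298 counts. Rif1 had 474, 44, 1144 and 1207 counts in WT 1, WT 2, Rif1_KO 1 and Rif1_KO 2, the order of every list of 4 values below. These counts go against the labels, so every direction below is one between labels. Ddx4, a defining germ cell marker, had 7, 551, 14 and 10 counts, and the 12 germ cell markers summed to 471 CPM in WT 2 against 37.1 to 56.7 CPM in the other libraries, with Mael at 0 in Rif1_KO 2. Here CPM means counts per 1000000 of a library total scaled by TMM, a factor that centres most genes. All 10 erythroid markers were lower under Rif1_KO without overlap, with sums of 138700 and 113000 against 9881 and 4266 CPM. All 6 stromal markers were higher, with sums of 305 and 230 against 1090 and 986 CPM, with Lum at 0 in WT 2. Haemoglobin genes took 11.8% and 8.92% of all counts under WT against 1.08% and 0.555% under Rif1_KO. Models of an rRNA region on chromosome 17 took 15.8% and 17.6% against 3.87% and 7.15%.

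All 57 subunits were abundant enough to be tested, and most were among the most abundant transcripts per length. The median level was 149.5 CPM per kb of exon, and the median subunit stood at percentile 97.4 of the 15466 genes tested. Levels ranged from 7.21 CPM per kb for Ndufs1, the largest core subunit of complex I, to 690.8 for Uqcr10, a small subunit of complex III. Complex IV had the highest median at 279.9 CPM per kb, followed by complex III at 161 and complex I at 139.4, and complex II had the lowest at 108 CPM per kb. Next to Uqcr10 stood Cox6b1 (668.2 CPM per kb), which faces the intermembrane space in complex IV, and Ndufa2 (564.9), an accessory subunit of the matrix arm of complex I. Cox7c, a small membrane subunit of complex IV, followed at 500.8 CPM per kb, and Ndufa4 at 358.1. Ndufa4 carries a complex I symbol, but its protein is known to reside in complex IV.

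In complexes I and III the core subunits had lower medians per kb than the other members. In complex I the 6 core members had a median of 70.1 CPM per kb against 149.5 for the 29 accessory members. Some accessory members were lower still, such as Ndufb2 at 28.1 and Ndufb5 at 29.9, and the core member Ndufs8 stood at 167.5. In complex II the flavoprotein Sdha was lowest at 27.6 CPM per kb, followed by Sdhc at 38.9, while Sdhd and Sdhb stood at 190.5 and 177.4. Per kb of principal transcript Sdha and Sdhc were alike, at 39.3 and 39.9. In complex III the core protein Uqcrc2 was lowest at 60.6 CPM per kb and Uqcr11 second highest at 325.2. Cox5a was lowest in complex IV at 85.6 CPM per kb. The exon models of these lowest genes are longer than the median of 1363 bases over the members. The span between the highest and the lowest subunit was 95.8-fold per kb of the whole exon model and 47.9-fold per kb of the principal transcript of each gene.

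**Figure D1:**
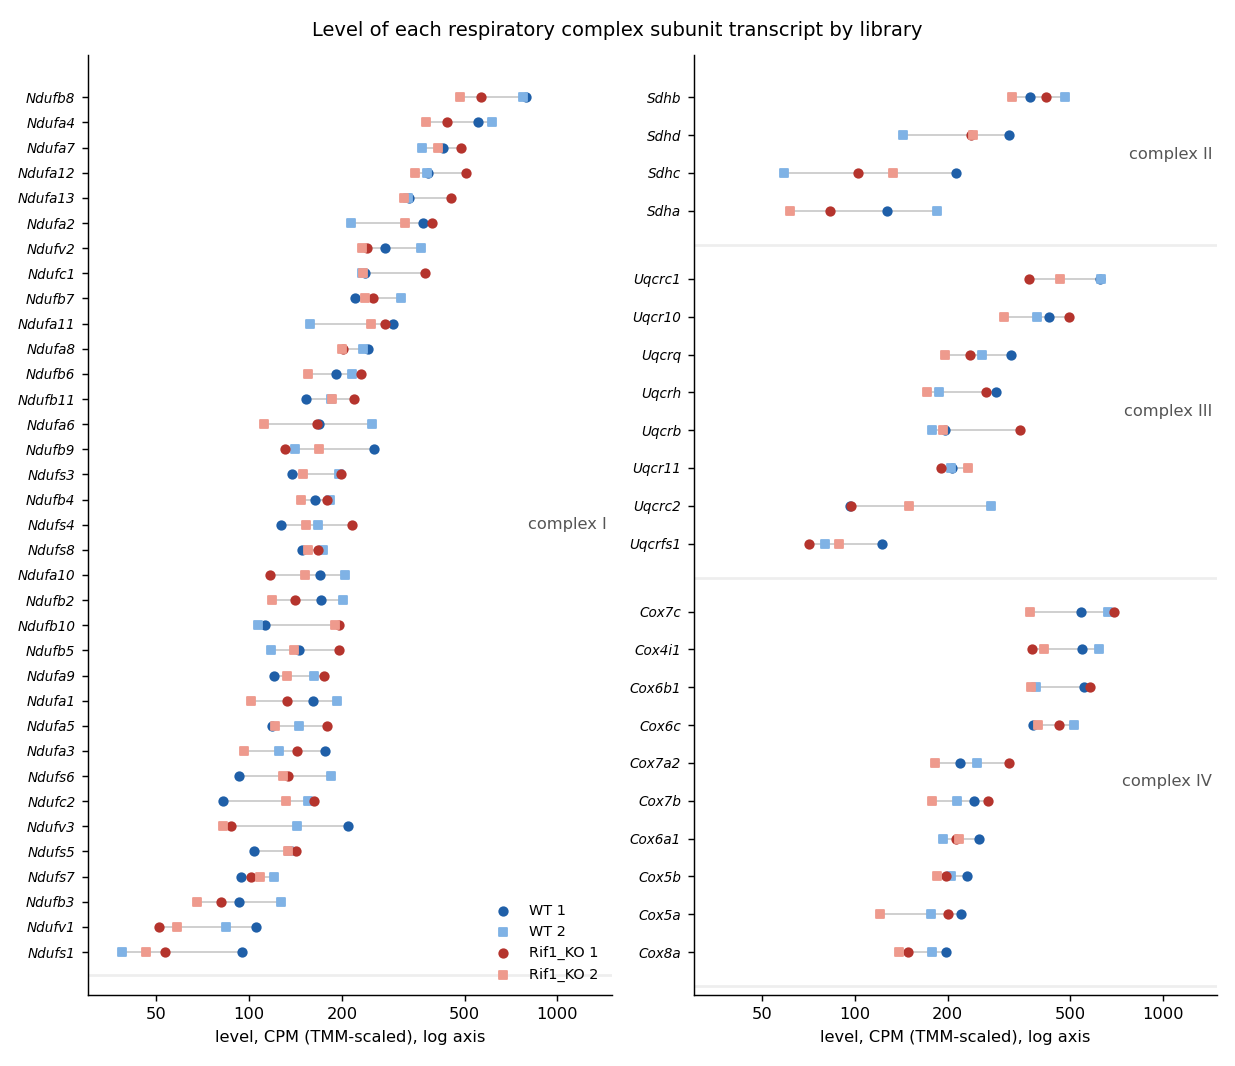
TMM-scaled CPM (log axis, not divided by length) of each of the 57 subunits in the 4 libraries, sorted within each complex, with a grey line from the lowest to the highest library. For most genes the blue WT and red Rif1_KO points interleave, and single libraries lie between 38.7 CPM (Ndufs1 in WT 2) and 789 CPM (Ndufb8 in WT 1).

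Promoters of nuclear respiratory genes are known for sites of NRF1, of the ETS factor GABP (NRF2) and of YY1, so these motifs were counted. RefSeq promoters (GRCm38.p6, 250 bases before to 50 after a gene's start) matched 48 of the 57 members. The NRF1 motif GCGCATGCG was found on either strand in 5 of 48 (10.4%), against 1.95% of the 27025 genes in the table. With any base before the TGCG (GCGCNTGCG, both strands, which includes the former), it was found in 15 (31.25%, against 7.12%), among them Sdha and Sdhd. The ETS motif CCGGAAGT, on either strand as for all motifs here, was found in 4 (8.33%, against 4.31%). The YY1 motif AAGATGGC was found in 7 (14.6%, against 3.19%), all in complex I and all in the 50 bases after the start. At least 1 of these motifs was in 24 of 48 promoters, against 13.3% of all genes.

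Stretches of 6 promoters are shown, each read upstream from the gene model to the nearest annotated exon or to the end of the window. Cox6a1, Ndufb4, Ndufs5 and Uqcr11 show what the motifs look like, and Ndufb10 and Ndufv3 are the complex I subunits with the largest differences in either direction described further on. Capitals mark motif matches on either strand, and all are written 5′ to 3′ on the gene's own strand.
Cox6a1, chr5:115348982-115349129, minus strand, 2 NRF1 matches, the first read on both strands: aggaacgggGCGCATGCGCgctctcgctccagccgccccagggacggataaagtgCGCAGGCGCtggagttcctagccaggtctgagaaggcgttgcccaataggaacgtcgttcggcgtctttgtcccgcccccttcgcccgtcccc
Ndufb4, chr16:37654454-37654618, minus strand, 1 NRF1 match: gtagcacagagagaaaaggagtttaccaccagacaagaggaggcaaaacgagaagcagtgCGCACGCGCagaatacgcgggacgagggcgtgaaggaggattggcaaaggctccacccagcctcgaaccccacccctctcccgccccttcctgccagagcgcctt
Ndufs5, chr4:123718203-123718436, minus strand, 1 NRF1 match: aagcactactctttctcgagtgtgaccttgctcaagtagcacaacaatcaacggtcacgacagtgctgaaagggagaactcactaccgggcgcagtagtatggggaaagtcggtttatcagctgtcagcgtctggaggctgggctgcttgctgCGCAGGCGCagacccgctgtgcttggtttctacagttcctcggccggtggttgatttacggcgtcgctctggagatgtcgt
Uqcr11, chr10:80406831-80407071, minus strand, 1 ETS match: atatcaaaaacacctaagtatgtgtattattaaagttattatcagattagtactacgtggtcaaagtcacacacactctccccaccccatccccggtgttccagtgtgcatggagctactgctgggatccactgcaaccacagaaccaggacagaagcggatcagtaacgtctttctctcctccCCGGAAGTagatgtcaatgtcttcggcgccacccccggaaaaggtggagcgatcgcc
Ndufb10, chr17:24724479-24724673, minus strand, no match: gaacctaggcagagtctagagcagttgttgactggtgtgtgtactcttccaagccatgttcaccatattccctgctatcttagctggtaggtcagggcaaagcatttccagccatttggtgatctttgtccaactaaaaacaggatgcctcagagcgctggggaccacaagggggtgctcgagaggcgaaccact
Ndufv3, chr17:31519981-31520114, plus strand, no match: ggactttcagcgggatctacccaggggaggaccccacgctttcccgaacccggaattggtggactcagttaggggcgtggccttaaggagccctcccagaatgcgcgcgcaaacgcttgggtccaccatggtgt
In Ndufb10, 1 NRF1 match lies in the 55 bases before the start that are not shown. Ndufb4 has 3 matches in the 250 bases before the start, of which 1 is shown. The NRF1 motif of Uqcr11 lies outside the stretch shown. A match is a run of letters and not a measured binding site.

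The 57 subunits together took a larger share of all counts in both libraries labelled Rif1_KO. With complexes assigned by symbol, the labels overlapped in the ratios of complexes II, III and IV to complex I. The share of the 57 subunits was 1.21% and 1.12% of the library total under WT and 1.55% and 1.51% under Rif1_KO, a ratio of means of 1.31. Complex I took 0.638% and 0.612% against 0.855% and 0.843%, with a ratio of means of 1.36, the largest of the 4 complexes. Complex IV took 0.288% and 0.269% against 0.379% and 0.336%, and complex III took 0.194% and 0.175% against 0.227% and 0.236%. The smallest ratio, 1.23, was that of complex II, at 0.0871% and 0.0688% against 0.0922% and 0.0993%. Both Rif1_KO libraries lay above both WT libraries for every complex on this scale. The 95% Clopper-Pearson intervals of these shares, which cover counting error only, reach at most 0.00698 percentage points to either side.

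On the TMM scale this ordering was gone. The summed level of the 57 subunits was 14190, 14180, 14130 and 11560 CPM, so that only Rif1_KO 2 stood apart, below the others. Complex I summed to 7610 ± 148 CPM under WT and 7107 ± 944 under Rif1_KO (SD, n = 2 each, also below), and complex IV to 3389 ± 6.42 and 3008 ± 626 CPM. Complex III summed to 2240 ± 52.2 and 1932 ± 185 CPM, without overlap. Complex II, at 946 ± 112 and 799 ± 57.0 CPM, did not overlap either. An exact two-sided permutation test of 2 against 2 cannot go below p = 0.333, so the sums are given without a test. TMM factors were 0.856 and 0.800 for WT and 1.11 and 1.32 for Rif1_KO, and the haemoglobin, rRNA-region and stromal transcripts given above move with them. With the haemoglobin, rRNA-region and mitochondrial genes removed before scaling, the factors ranged from 0.951 to 1.08 over the 4 libraries, and the log2 ratio of the summed levels of all members went from -0.143 to -0.082. The part of the stromal transcripts was not tested, and in bulk RNA fewer cells of a type and less RNA per cell cannot be told apart.

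**Figure D2:**
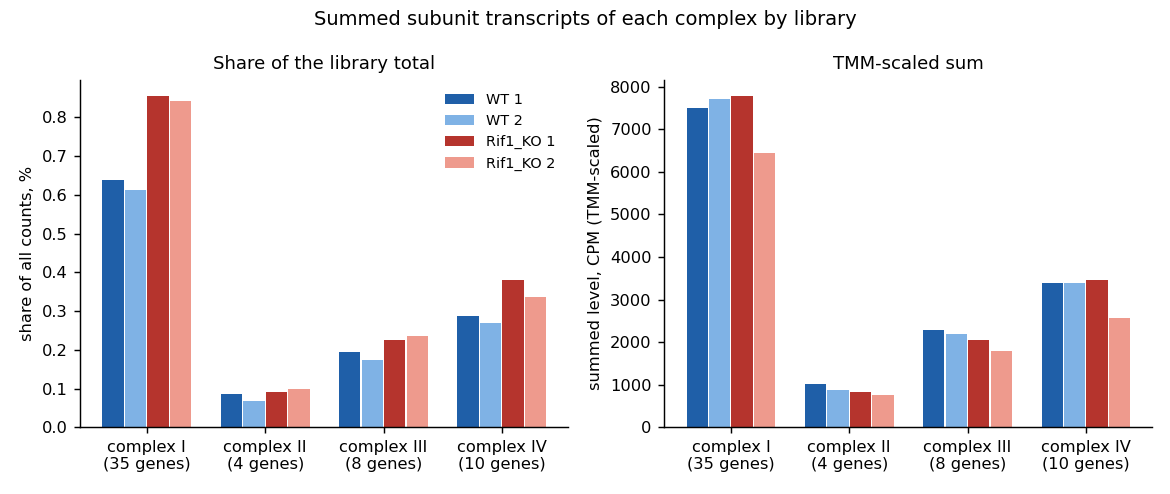
Summed transcripts of each complex in each library, as percent of the library total (left) and as TMM-scaled CPM (right), 1 bar per library and axes from 0. On the left both Rif1_KO bars stand above both WT bars in every complex, and on the right Rif1_KO 2 has the lowest bar in every complex.

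Ratios taken within a library do not depend on the scaling factor. The mean complex IV member was 1.95 and 1.77 times the mean complex I member per kb under WT, and 1.83 and 1.64 times under Rif1_KO. Complex III stood at 1.52 and 1.36 times complex I under WT and at 1.49 and 1.41 times under Rif1_KO, and complex II at 0.806 and 0.597 against 0.626 and 0.702. In each of these 3 ratios, with complexes assigned by symbol, the labels overlapped. Counting Ndufa4 with complex IV gave ratios of complex IV to complex I of 2.09 and 1.96 under WT. Under Rif1_KO they were then 1.88 and 1.71, without overlap. The order of mean levels, complex IV above III above I above II, was the same in all 4 libraries.

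No subunit was called different between the labels. On simulated counts the same fit recovered 0.0% of 2-fold and 8.16% of 4-fold changes in genes drawn from all those tested. Few true differences of that size would thus be called in such genes. The subunits are more abundant and vary less between libraries than the median gene, and the recovery for them was not tested. edgeR's quasi-likelihood test, with Benjamini-Hochberg adjustment over all 15466 genes at 0.05, called 0 of 57 members, against 0.0129% of all genes tested. DESeq2 called 0 of 57 (3.36% of all genes) and limma-voom 0 of 57 (0.0129%). At an unadjusted edgeR p under 0.05 there were 0 members higher (5.35% of all genes) and 2 lower (3.05%), Ndufv3 and Sdha. Fold changes are given as log2 of Rif1_KO over WT with a standard error, and their median was -0.09 over the members and -0.11 over all genes tested. By complex the medians were -0.08 for I, -0.20 for II, -0.23 for III and -0.12 for IV. Below 0 were 36 of 57 members (63.2%), against 53.9% of all genes.

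The sign of such small values depends on the scaling. With the library total alone, 48 of 57 members (84.2%) had a log2 fold change above 0, against 64.8% of all genes, with a median of 0.45 for the members and 0.43 for all genes. With upper-quartile factors 36 of 57 members were above 0 and the median of all genes was 0.16. With the size factors of DESeq2, in edgeR, 16 of 57 were above 0 and the median of all genes was -0.20.

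**Figure D3:**
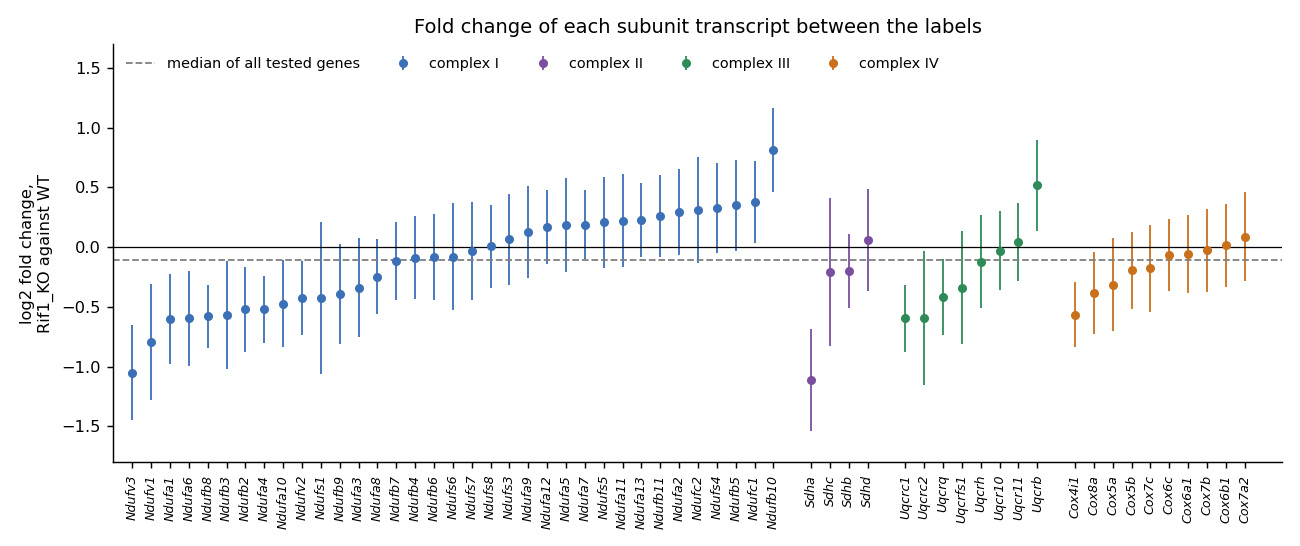
Log2 fold change of each subunit, Rif1_KO against WT, from the TMM-scaled edgeR fit, sorted within each complex; points are estimates, bars are 1 standard error to either side, and the dashed line is the median of all tested genes at -0.11. Ndufb10 at 0.81 is highest, and Sdha at -1.12 and Ndufv3 at -1.05 are lowest.

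Complex I held the largest positive and one of the largest negative differences, both among accessory subunits. Ndufb10, a subunit of the membrane arm (chromosome 17, 24722060 to 24724478, mm10), stood at 113, 107, 195 and 190 CPM. Both Rif1_KO libraries were above both WT libraries, the means were 110 ± 4.05 and 193 ± 3.74 CPM, and the log2 fold change was 0.81 (SE 0.35, edgeR adjusted p = 0.601). Ndufv3, which lies near the NADH-binding end of the matrix arm (chromosome 17, 31520115 to 31531326, mm10), stood at 208, 142, 87.5 and 82.0 CPM. Here both Rif1_KO libraries were below both WT libraries, with means of 176 ± 46.7 and 84.7 ± 3.88 CPM and a log2 fold change of -1.05 (SE 0.40, edgeR adjusted p = 0.577). The promoter stretches printed above for these genes held no match, but Ndufb10 has 1 NRF1 match in the bases before the start that are not shown. The ratio of Ndufv3 to Ndufb10 counts, a pair chosen after the values were seen, was 1.85 and 1.33 under WT and 0.448 and 0.431 under Rif1_KO.

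Of the core subunits of complex I, which carry the flavin and the iron-sulphur clusters, 4 of 6 had a log2 fold change below 0 (53.9% of all genes did) and 2 were lower under Rif1_KO without overlap (18.4% of all genes). With the library total alone 5 of 6 were above 0, 3 were higher without overlap (34.4% of all genes) and 0 lower. Ndufv1, which binds NADH and the flavin, stood at 105, 84.4, 50.9 and 58.5 CPM, with a log2 fold change of -0.79 (SE 0.49). Its partner Ndufv2 stood at 275, 361, 241 and 233 CPM, also without overlap and with a smaller log2 fold change of -0.42 (SE 0.31). Ndufs1, which carries several of the iron-sulphur clusters, stood at 94.9, 38.7, 53.2 and 46.3 CPM. Both Rif1_KO values of Ndufs1 lay between the WT values, and the log2 fold change was -0.42 (SE 0.63). Ndufs3, Ndufs7 and Ndufs8, which belong to the part of the arm leading to ubiquinone, had log2 fold changes of 0.06, -0.03 and 0.01, and the labels overlapped for each.

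Among the 29 accessory subunits of complex I, 14 had a log2 fold change above 0 and 15 below. Ndufb8, a membrane arm subunit whose transcript was the most abundant of the set before length is taken into account, stood at 789, 773, 563 and 483 CPM. It did not overlap between labels, and its log2 fold change was -0.58 (SE 0.26, edgeR adjusted p = 0.619). Ndufa4 was likewise lower under Rif1_KO without overlap, at 552, 614, 438 and 374 CPM (log2 fold change -0.52, SE 0.28). On the higher side, Ndufc1, a small subunit of the membrane arm, stood at 237, 231, 372 and 235 CPM, so that its value of 0.38 (SE 0.34) rests on Rif1_KO 1. Ndufb5, also of the membrane arm, had a log2 fold change of 0.35 (SE 0.38) at 145, 117, 195 and 140 CPM, with overlap. Ndufs4, whose loss in mice causes a Leigh-like brain disease, had 0.33 (SE 0.38) at 127, 167, 216 and 153 CPM, with overlap. The X-linked members of the set showed no common direction. Ndufa1 had a log2 fold change of -0.60 (SE 0.38) and Ndufb11 of 0.26 (SE 0.34), neither with overlap, and Cox7b of complex IV had -0.03 (SE 0.35) with overlap.

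In complex II the flavoprotein Sdha stood apart from its iron-sulphur partner Sdhb. Sdha, which oxidises succinate (chromosome 13, 74322254 to 74350280, mm10), stood at 127, 185, 82.7 and 61.4 CPM. Both Rif1_KO libraries were below both WT libraries, with means of 156 ± 40.9 and 72.1 ± 15.1 CPM and a log2 fold change of -1.12 (SE 0.43, edgeR adjusted p = 0.577). Sdhb, to which Sdha passes electrons, stood at 370, 480, 416 and 323 CPM, with overlap and a log2 fold change of -0.20 (SE 0.31). The ratio of Sdha to Sdhb counts within a library was 0.344 and 0.386 under WT and 0.199 and 0.190 under Rif1_KO, without overlap. That ratio needs no scaling factor, but it reuses the counts of Sdha, the member with the lowest log2 fold change, and is no separate support. The pair was not among the planned comparisons.

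The membrane anchors of complex II varied more between the WT libraries than between labels. Sdhc stood at 212, 58.7, 102 and 132 CPM, and Sdhd at 315, 144, 238 and 241 CPM. For both, the WT libraries were the highest and the lowest of the 4. Their log2 fold changes were -0.21 (SE 0.62) and 0.06 (SE 0.43), and the ratio of Sdhc to Sdhd counts was 0.673 and 0.409 under WT and 0.430 and 0.549 under Rif1_KO.

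In complex III the 3 core subunits among the members all had log2 fold changes below 0, and 3 of the 5 small ones did. The core subunits summed to 914 ± 101 CPM under WT and 618 ± 119 under Rif1_KO, without overlap, while the 5 small subunits summed to 1326 ± 153 and 1313 ± 304 CPM. As a share of the library total the core subunits overlapped between labels, at 0.0716% and 0.0782% under WT and 0.0587% and 0.0920% under Rif1_KO, and 2 of the 3 had log2 fold changes above 0 on that scale. Uqcrc1, a core protein of the matrix side, stood at 623, 630, 366 and 464 CPM, with non-overlapping labels and a log2 fold change of -0.60 (SE 0.28, edgeR adjusted p = 0.629). Its partner Uqcrc2 had nearly the same log2 fold change, -0.59, with a standard error of 0.56. WT 1 and Rif1_KO 1 had alike and low values of Uqcrc2, at 96.4 and 97.3 CPM, while WT 2 had 276 and Rif1_KO 2 had 150 CPM. Uqcrc2 shares 19.8% of its exon bases with Pdzd9, and reads there were counted for both. The Rieske iron-sulphur protein Uqcrfs1 stood at 123, 79.8, 71.0 and 88.9 CPM, with overlap and a log2 fold change of -0.34 (SE 0.47). Cyc1, a further core subunit of complex III that is not among the members, stood at 53.8, 67.0, 34.5 and 85.8 CPM. It overlapped between labels, with a log2 fold change of -0.006 (SE 0.63).

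Of the small subunits of complex III, Uqcrb and Uqcrq differed most, in opposite directions. Uqcrb, which helps to form the ubiquinone-binding pocket, stood at 196, 178, 343 and 194 CPM, and its log2 fold change of 0.52 (SE 0.38) rests on Rif1_KO 1. Uqcrq stood at 321, 258, 236 and 196 CPM, without overlap and with a log2 fold change of -0.42 (SE 0.32). Uqcr11 had 0.04 (SE 0.32), and the most abundant, Uqcr10, had -0.03 (SE 0.33) at 426, 390, 494 and 305 CPM. For Uqcr10 the Rif1_KO libraries were the highest and the lowest of the 4.

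Complex IV showed the narrowest range of differences, from -0.57 to 0.09. Cox4i1, the largest nuclear subunit and a site of regulation by ATP, stood at 545, 619, 376 and 410 CPM, without overlap (log2 fold change -0.57, SE 0.27, edgeR adjusted p = 0.632). Cox8a, one of the smallest, was also without overlap at 198, 177, 149 and 139 CPM, with -0.38 (SE 0.34). Cox5a and the zinc-binding Cox5b, which face the matrix, had -0.31 (SE 0.39) and -0.19 (SE 0.32), the first with overlap and the second without. On the other side stood Cox7a2 with 0.09 (SE 0.37) and Cox6b1 with 0.02 (SE 0.35), both with overlap. Cox6b1 stood at 554, 387, 579 and 373 CPM, so that replicate 1 was high under both labels. Cox7c, the most abundant of complex IV before length is taken into account, spanned from 370 CPM in Rif1_KO 2 to 693 CPM in Rif1_KO 1.

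Ubiquitous forms of complex IV subunits exceeded their tissue forms in every library. Cox6a2, the heart and muscle form of Cox6a1, had 0 counts in all 4 libraries, which allows at most 0.234 to 0.474 CPM per kb at 3 counts, against 274 to 361 for Cox6a1. The muscle form Cox8b had 0, 2, 0 and 11 counts. Cox7a1, the muscle form of Cox7a2, was the best represented of these under WT relative to its partner, at 24.1, 23.3, 9.15 and 8.91 CPM per kb. It did not overlap between labels, with a log2 fold change of -1.39 (SE 1.26, edgeR adjusted p = 0.817). The 5 muscle markers summed to 2.67, 3.76, 1.66 and 0.7945 CPM, with Acta1 at 0 in WT 1 and Actc1 at 0 in WT 2 and Rif1_KO 2. Of the 5, 3 were lower under Rif1_KO without overlap (18.4% of all genes), at few counts. Myog had 5, 8, 1 and 1 counts, Myod1 3, 6, 1 and 1, and Tnnt2 20, 18, 14 and 12. The part of the muscle markers in the level of Cox7a1 was not tested. Cox4i2, the form known from lung and low oxygen, stood at 1.05, 0.682, 2.29 and 3.90 CPM per kb, against 242 to 399 for Cox4i1.

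Of the forms known from testis, Cox6b2 was measurable in all libraries, at 23.9, 41.3, 19.9 and 21.6 CPM per kb beside 526 to 817 for Cox6b1. Its highest library, WT 2, is the one with most germ cell marker transcripts. Cyct, the testis form of cytochrome c, was likewise highest in WT 2, with 49, 100, 22 and 2 counts. Cox7b2 had 0, 4, 85 and 0 counts, and Cox8c 15, 0, 2 and 1, each carried by 1 library. Ndufa4l2, the relative of Ndufa4 induced by low oxygen, had at most 4 counts.

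**Figure D4:**
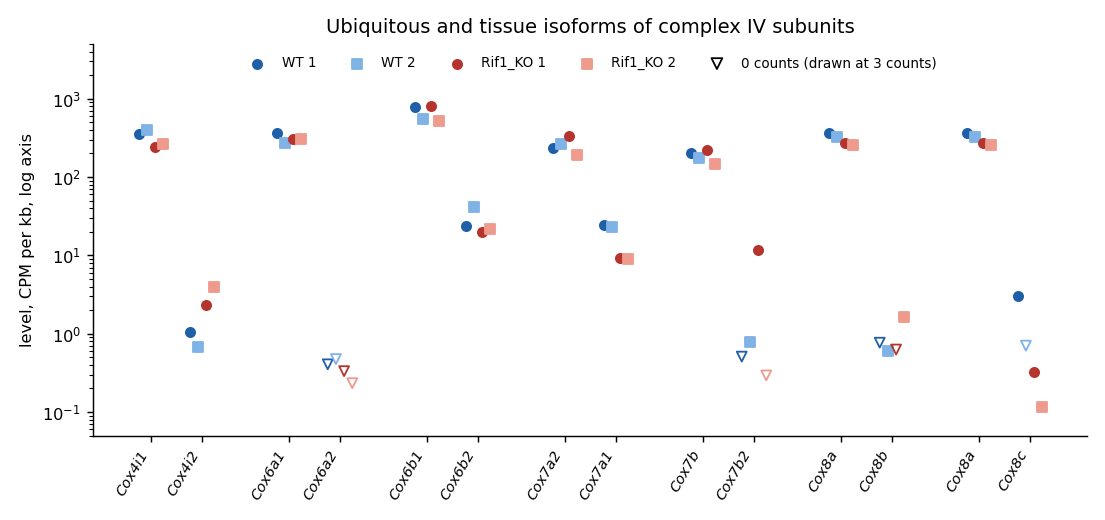
CPM per kb of exon (log axis) of 6 ubiquitous complex IV subunits, each beside its tissue form, with Cox8a drawn again beside each of its 2 tissue forms, in the 4 libraries; open triangles mark libraries with 0 counts, drawn at the level of 3 counts. Every filled or open point of a tissue form lies below all points of its ubiquitous partner.

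Each subunit was also expressed as a share of the summed counts of the 57 members. On this scale 14 members were higher without overlap (24.6%, against 24.4% of all genes scaled in the same way) and 13 lower (22.8%, against 15.0%). Accessory subunits of complex I, which are 29 of the 57 members, made up 13 of the 14 higher ones, the other being Uqcrb, and 7 of the 13 lower ones. The other 6 lower ones were 1 core subunit of complex I, 1 in complex II, 2 in complex III and 2 in complex IV. No core subunit of complex I and no member of complex IV was higher. By the TMM scale, 2 members were higher without overlap (3.51%, against 21.0% of all genes) and 17 lower (29.8%, against 18.4%). By share of the library total, 32 were higher (56.1%, against 34.4%) and 2 lower (3.51%, against 9.07%).

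Only 4 members kept the labels apart in the same direction on all 3 scales. Ndufb10 and Ndufb11, both accessory subunits of the membrane arm, were higher (3.51% of members, against 21.0% of all genes). Ndufb11 (X, 20615326 to 20617619, mm10) stood at 153, 185, 219 and 186 CPM, so that WT 2 and Rif1_KO 2 nearly touched. Ndufv3 and Sdha, which sit near the entry of electrons from NADH and from succinate, were lower (3.51%, against 9.07%). Both shares are below those of all genes. The 3 scales differ only by a factor for each library. The shares over all 3 are therefore those of the TMM scale alone for higher and of the library total alone for lower. Agreement of the 3 scales is no separate support.

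Subunits were more alike between libraries of a label than the median gene was. The median absolute log2 ratio between WT 1 and WT 2 was 0.32 for the members and 1.22 for all tested genes, and between the Rif1_KO libraries it was 0.30 and 0.82. Between WT libraries 11 members differed by over 1.5-fold and 4 by over 2-fold. Those 4 were Ndufs1 (2.45-fold), Sdhc (3.62-fold) and Sdhd (2.20-fold), higher in WT 1, and Uqcrc2, with WT 1 at 0.349 of WT 2. Between Rif1_KO libraries 10 members differed by over 1.5-fold, 5 of them in complex IV, and 0 by over 2-fold. Rif1_KO 1 was above Rif1_KO 2 for 45 of 57 members. The members are also more abundant than most genes, and the part of abundance in the smaller spread was not tested.

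**Figure D5:**
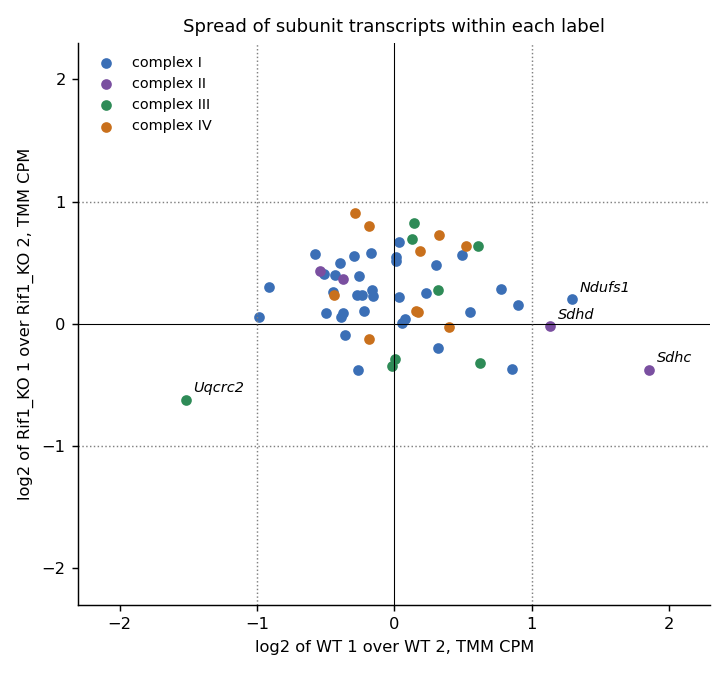
Log2 ratio of WT 1 to WT 2 (horizontal axis) against log2 ratio of Rif1_KO 1 to Rif1_KO 2 (vertical axis) of TMM-scaled CPM for each of the 57 subunits, coloured by complex, with dotted lines at 2-fold. Most points lie above 0 on the vertical axis, and the 4 named genes lie past 2-fold between the WT libraries.

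Other genes of the pathway were read from lists that do not overlap the 57, and edgeR called none of them. Mitochondrially encoded subunits, which join the nuclear ones in complexes I, III and IV, numbered 13, all tested. Their median log2 fold change was -0.32, with 6 above 0 and 7 below, and 10 above 0 with the library total alone. At an unadjusted p under 0.05, 1 was lower (3.05% of all genes), mt-Nd1 (15980, 22620, 12880 and 10920 CPM, log2 fold change -0.70, SE 0.26, edgeR adjusted p = 0.577). Next to it stood mt-Nd5, with -0.55 (SE 0.27). On the other side mt-Atp6, named after its values were seen, was highest with 0.75 (SE 0.63). The ratio of mitochondrially encoded to nuclear counts was 4.15 and 5.48 for complex I under WT and 3.60 and 3.40 under Rif1_KO, without overlap. For complex IV it was 5.07 and 8.12 against 4.95 and 5.06, nearly touching, and for complex III 42.9 and 67.6 against 60.3 and 34.3, the last with overlap. The highest ratio of each complex was that of WT 2. In complex IV nearly all mitochondrially encoded counts were of mt-Co1 (184551, 252734, 218763 and 240982), with a log2 fold change of -0.595 (SE 0.30). The far less counted mt-Co2 and mt-Co3 went the other way, with 0.67 (SE 0.61) and 0.54 (SE 0.69). In complex I mt-Nd1 had the most counts.

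The 15 nuclear subunits of ATP synthase had a median log2 fold change of 0.10, with 9 above 0. Atp5g3, which encodes the ring subunit c, was highest with 0.60 (SE 0.38), and Atp5e was lowest with -0.39 (SE 0.36). Cytochrome c itself, Cycs, stood at 178, 210, 231 and 195 CPM, with 0.13 (SE 0.33). Of 11 further subunits and tissue forms of complexes I to IV, 6 were tested, with a median of -0.02 and 0 at an unadjusted p under 0.05.

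Assembly factors, which build the complexes and insert their metals, varied more than the subunits. Their median absolute log2 ratio between WT libraries was 0.93 for the 43 genes, all tested, against 0.32 for the members and 1.22 for all tested genes. Assembly factors were also less abundant, with a median of 8.01 CPM per kb against 149.5 for the members. The part of abundance in their spread was not tested. The median log2 fold change was 0.07, with 2 higher at an unadjusted edgeR p under 0.05 (5.35% of all genes). Ndufaf6, a complex I assembly factor, had 5, 5, 179 and 474 counts, and a log2 fold change of 5.25 (edgeR adjusted p = 0.571, DESeq2 adjusted p = 0.000505). Cox18, which inserts a complex IV subunit into the membrane, had 6, 5, 88 and 170 counts and a log2 fold change of 3.82 (SE 1.38, edgeR adjusted p = 0.572, DESeq2 adjusted p = 0.0528). DESeq2 called 2 of the 43 (3.36% of all genes), Ndufaf6 and, lower under Rif1_KO, Lyrm7. Lyrm7, a complex III factor named here after its values were seen, had 179, 159, 25 and 43 counts.

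Of the enzymes that feed the chain and the regulators of mitochondrial genes none was called by edgeR. On the TMM scale the median log2 fold change of 17 pyruvate dehydrogenase and citric acid cycle enzymes was -0.34, 14 were below 0 (53.9% of all genes), and 9 were lower without overlap (18.4% of all genes). The direction turned with the scaling, since with the library total alone 11 of the 17 were above 0 and 1 was lower without overlap (9.07% of all genes). Suclg1, of succinyl-CoA synthetase, which makes the substrate of complex II, stood at 146, 211, 66.7 and 93.0 CPM. Its log2 fold change was -1.16 (SE 0.42, edgeR adjusted p = 0.573), and that of Idh3g, of isocitrate dehydrogenase, was -0.83 (SE 0.36). Of 11 regulators 10 were tested, with a median of 0.52 and 8 above 0, or 9 with the library total alone. Pprc1, a coactivator of the PGC-1 family, had 11, 8, 117 and 229 counts and a log2 fold change of 3.47 (SE 1.39, edgeR adjusted p = 0.582). Gabpa, the DNA-binding part of GABP, stood at 26.5, 18.2, 65.5 and 56.1 CPM, with 1.44 (SE 0.68).

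The counting bears on some members. A read over more than 1 gene was given to all of them and strand was not used, and 18 members share exon bases with another gene model, 8 of them over 10% of their exon bases. The highest shares were in Ndufb6 (39.0%, with Smim27) and Ndufa13 (29.98%, with Tssk6), and Ndufb11 shares 12.9% with Rbm10. For 14 members a model elsewhere in the genome matches the principal transcript at 95% identity over 150 bases or more. The copies together held over 10% of the member's counts for Cox7c (41.8%), Ndufa12 (37.1%) and Cox5b (17.7%), and the split between gene and copy is uncertain there. Ndufb10, Ndufv3 and Sdha had neither a shared exon base nor such a copy.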

How the data were processed

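RNA-seq of 4 libraries was used, 2 labelled WT and 2 labelled Rif1_KO, grouped by genotype label, with replicates numbered as in their titles. The deposited values are raw counts per gene, with no normalization by the authors. Per the file headers, featureCounts 1.6.2 counted read pairs on GENCODE M17 at a mapping quality of at least 30, for every gene they overlap, multiply aligned reads included and strand not used. HISAT2, SAMtools, FastQC and Trim Galore were used with mm10, per the submitters' processing notes. Symbols were looked up by identifier, and 95 identifiers had none.

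From the counts, filterByExpr (minimum count 10) kept 15466 genes. These were tested with edgeR 4.0.16 (quasi-likelihood, robust, TMM) in R 4.3.3 without covariates, adjusted over all of them by Benjamini-Hochberg at 0.05, two-sided. The common biological coefficient of variation was 0.842. DESeq2 1.42.0, limma-voom (limma 3.58.1), other scalings and filters, fits without each library, and a replicate block were alternatives. The fit was tested on simulated counts, with 50 genes changed at each size, drawn from all tested genes. edgeR recovered 0.0% of them at 2-fold, 8.16% at 4-fold, 35.6% at 16-fold and 60.4% at 64-fold. Levels per length use the exon length of the table. Copies were sought with blastn 2.17.0 among GENCODE M21 transcripts, and promoters come from RefSeq.

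Members and lists were chosen with earlier results of these data known. Genes named are, per complex, the 2 members with the smallest p in each direction (4 for complex I), the 2 most and the 1 least abundant per kb, the core, catalytic and anchor subunits with Cox4i1, Cox5a and Cox5b, X-linked members, members over 4-fold apart between libraries of a label (none was), and, per context list, the 2 with the smallest p and the tissue forms of complex IV. Others were chosen after their values were seen.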

Additional observations from a re-analysis of the deposited data

How the results depend on the processing

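Under all 13 alternatives the number of members called stayed at 0, with the smallest adjusted p between 0.117 and 0.969. The sign of the small shift of the whole set depended on the processing. The median log2 fold change of the members and of all genes was -0.17 and -0.20 with the size factors of DESeq2, 0.19 and 0.16 with upper-quartile factors and 0.45 and 0.43 with the library total only, whereas without a filter on low counts it was 0.20 and -0.10. The medians of complexes I, II, III and IV were 0.20, 0.072, 0.048 and 0.16 with upper-quartile factors, 0.48, 0.34, 0.30 and 0.42 with the library total only, and 0.24, 0.075, 0.044 and 0.17 without a filter on low counts. Leaving out a library gave -0.065 to 0.099 for complex I, -0.60 to 0.23 for II, -0.28 to 0.069 for III and -0.28 to 0.078 for IV. The log2 ratios of summed levels of all members and of complexes I, II, III and IV were 0.14, 0.18, 0.033, 0.063 and 0.11 with upper-quartile factors, 0.40, 0.44, 0.30, 0.33 and 0.36 with the total only, and 0.15, 0.19, 0.041, 0.076 and 0.11 without the filter. Without a library they ran from -0.21 to 0.046, -0.16 to 0.084, -0.35 to -0.070, -0.23 to -0.068 and -0.32 to 0.078. The log2 ratio of complex II to complex I was between -0.28 and 0.15 without a library. Of the genes in the pathway lists, DESeq2 called 2 and the fits without a library called 0 to 4.

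Among the 19 members named by their p, 8 changed sign. With the library total only, Ndufa4 was at 0.022, Sdhb at 0.34, Uqcrq at 0.11 and Cox8a at 0.16. Sdhb was at 0.078 with upper-quartile factors and 0.097 without the filter. With the size factors of DESeq2, in edgeR or DESeq2 itself, Sdhd was at -0.023, Uqcr11 at -0.041 and Cox6b1 at -0.067. limma-voom gave -0.013 for Cox7a2 and -0.051 for Cox6b1, and the stricter filter -0.006 for Cox6b1. Leaving out a library gave -0.326 to 0.028 for Sdhb, -0.390 to 0.786 for Sdhd, -0.057 to 0.263 for Uqcr11, -0.285 to 0.486 for Cox7a2 and -0.261 to 0.350 for Cox6b1. The cause was not tested.

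No pairing of the libraries by replicate number was seen, since deviations of same-numbered libraries correlated at -0.02 over all tested genes. With 2 libraries a label, that value cannot show that they were unpaired. With the replicate number as a block, edgeR called 0 members, with medians of -0.02, -0.07, -0.22 and -0.12 for complexes I to IV, and 7 of all genes in place of 2. Counting Ndufa4 with complex IV, and using principal transcript lengths for the ratios between complexes, the latter chosen after seeing the data, changed no sign. The former did remove the overlap of the labels in the ratio of complex IV to complex I. The 2 libraries a label limit what the test can call.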
